A study of Bos taurus with 42 samples.

Results

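miR-205 and miR-138 were followed from the bovine oocyte through early development as every listed small RNA sequence whose first annotated hit was either miRNA, any arm or gene copy, with names that carry a mismatch left out. The rule found 7 of 12345 listed sequences, 2 of miR-205 (miR-205-5p and miR-205) and 5 of miR-138 (miR-138-2-5p, miR-138-1-5p, a sequence assigned to the 5p arm of both copies, miR-138-1-3p, and miR-138 with no arm). The pair was chosen by its high levels in the oocyte libraries of this same table, so its levels in oocytes and fibroblasts are given as a description, without a test.

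The study sequenced RNA under 200 nt from 42 bovine samples in 12 groups. Oocytes at metaphase II (3 samples), matured in vitro, were the starting point. Embryos came from in vitro fertilization (IVF) with semen of a Holstein bull, or from somatic cell nuclear transfer (NT), in which the oocyte's own chromosomes were removed and a fibroblast cultured from an ear biopsy of a Brahma Spanish cross bull was fused in. NT oocytes were stripped of cumulus cells before the transfer, and IVF zygotes after fertilization. IVF zygotes were then grown on a layer of cumulus cells. Pools of 20 embryos were collected at the 2-cell stage on day 2 (4 IVF and 4 NT samples), the 8-cell stage on day 3 (3 and 4), the morula stage on day 6 (4 and 3) and the blastocyst stage on day 8 (3 and 4). Cells derived from blastocysts (4 IVF and 3 NT samples) and fibroblasts (3) completed the set. The labels do not say that pools of a group came from separate cultures or animals, so p-values measure only the spread between these samples. In such bulk samples, fewer cells of a type and less RNA per cell cannot be told apart.

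MicroRNAs are short RNAs that guide Argonaute proteins to complementary messenger RNAs and lower their translation or stability. An embryo starts with RNA stored in the oocyte, much of which is removed before and around the activation of its own genome, which in cattle is placed around the 8-cell to 16-cell stages. miR-205 is known as an epithelial miRNA that, with the miR-200 family, represses ZEB1 and ZEB2, both repressors of epithelial genes. miR-138 is known mostly from neural tissue and is made from a pair of gene copies that share the mature 5p arm but not the 3p arm.

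In the RefSeq annotation of assembly ARS-UCD2.0, MIR205 lies between CAMK1G and an uncharacterised long noncoding RNA gene, LOC104974529. MIR138-1 overlaps the uncharacterised gene LOC132343486, with ABHD5 and TOPAZ1 as its nearest coding genes. MIR138-2 lies between NUP93, which encodes a nuclear pore protein, and SLC12A3, which encodes a sodium-chloride cotransporter. The files use the builds UMD3.1 and bosTau8, so only neighbours are given here.

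The deposited values allowed reads to be recovered, with the smallest listed value set to 2 reads. Between 25119 and 3081186 reads were listed in a library, and between 796 and 2482312 of them were bovine miRNA reads. All 12345 sequences were detected in NT 2-cell replicate 4 and between 423 and 8919 in the other libraries. A pair of IVF morula libraries stood apart. Replicate 3 had 25119 listed reads and 796 miRNA reads. In replicate 1 miRNAs made up 64.1% of listed reads, against 4.58% and 4.15% in replicates 2 and 4, and 1069 sequences were detected. In blastocyst-derived cells the miRNA share was 45.1% to 81.8%, with 926 to 1345 sequences detected. Why morula replicate 1 lay in these ranges was not tested. The early embryo marker list held 1 listed sequence, of miR-302, which was at 0 in replicate 1 and at 1212 and 1958 miRNA RPM in replicates 2 and 4. In replicate 3 a level below 2513 miRNA RPM could not be listed, so its 0 there says nothing. Tests on IVF morulae are therefore given with and without replicates 1 and 3.

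The reads are given on 3 scales, since the answer for miR-205 differs between them. Normalised reads are reads divided by the size factor that the authors' normalisation gave each library. The miRNA RPM is the number of reads per 1000000 bovine miRNA reads of the library, and the listed RPM the number per 1000000 listed reads of any class.

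miR-205-5p was among the most abundant miRNA sequences of the oocyte and of the cleavage-stage embryo, and in normalised reads and miRNA RPM it was lower in every blastocyst than in every oocyte and 8-cell sample. The 3 oocyte samples held 820, 706 and 830 normalised reads, which placed miR-205-5p at rank 11 among 379 bovine miRNA sequences without a mismatch. IVF 2-cell embryos held 752, 574, 159 and 868, and NT 2-cell embryos 963, 768, 449 and 728, where its rank was 7. IVF 8-cell embryos held 546, 426 and 341, and NT 8-cell embryos 761, 269, 997 and 457. Levels of oocytes, 2-cell and 8-cell embryos thus overlapped, and the lowest of them was IVF 2-cell replicate 3, which in miRNA RPM lay within the range of IVF blastocysts. That library also had the highest sum of the cumulus marker list among IVF 2-cell samples, 333402 miRNA RPM over 11 sequences, against 45869, 90306 and 156662 in the others. The lowest miR-205-5p also went with the highest cumulus sum in NT 2-cell replicate 3 (205377, against 45596 to 71431 in the others) and IVF 8-cell replicate 4 (264399, against 136448 and 140202). In NT 8-cell embryos the 2 lowest libraries, replicates 2 and 4, had the 2 highest sums, 221479 and 260528, against 86294 and 50441. This order held in normalised reads and miRNA RPM but not throughout in listed RPM. There NT 2-cell replicate 3, at 451, and NT 8-cell replicate 4, at 566, were the highest of their groups. IVF 8-cell replicate 4, at 451, lay above replicate 3, at 316. IVF 2-cell replicate 3, at 249, and NT 8-cell replicate 2, at 286, stayed the lowest of theirs. In oocytes the order also depended on the scale. Replicate 3, lowest in normalised reads, had the lowest sum, 81198, against 149015 and 124562. In miRNA RPM replicate 1 was lowest and had the highest sum. The list is not particular to cumulus cells: it summed to 256894 in fibroblast replicate 3 and to 233862 to 241365 in NT blastocyst-derived cells. The part of cumulus RNA in these levels was not tested.

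At the morula stage miR-205-5p stood at 397 and 488 normalised reads in IVF replicates 2 and 4, at 1.34 and 0 in replicates 1 and 3, and at 293, 219 and 465 in NT embryos. Blastocysts held 91.4, 70.3 and 104 (IVF) and 56.7, 77.1, 75.0 and 60.1 (NT), so that all 7 lay below every oocyte, 2-cell and 8-cell sample. Over all tested sequences, 22.6% (IVF) and 28.1% (NT) did not overlap between the 2-cell stage and the blastocyst, and 33.2% and 34.6% between the 8-cell stage and the blastocyst. Cells derived from blastocysts held 0.527, 1.84, 22.3 and 5.89 (IVF) and 1.15, 3.06 and 1.18 (NT). Fibroblasts held 0, 0 and 0.969. The spread over IVF blastocyst-derived cells was wide, but all of them lay below all blastocysts. Between these stages 12.8% (IVF) and 11.1% (NT) of all tested sequences did not overlap.

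Levels of miR-138-2-5p likewise overlapped from the oocyte to the 8-cell stage and were lower in blastocysts. Oocytes held 629, 1005 and 679 normalised reads (rank 14), IVF 2-cell embryos 1185, 642, 148 and 639, and NT 2-cell embryos 774, 581, 325 and 524. IVF 8-cell embryos held 523, 477 and 221, and NT 8-cell embryos 688, 314, 1000 and 275. IVF morula replicates 2 and 4 held 180 and 294, replicates 1 and 3 held 4.69 and 0, and NT morulae held 197, 62.5 and 152. Blastocysts held 19.0, 36.3 and 17.5 (IVF) and 14.2, 12.8, 16.9 and 14.7 (NT). In normalised reads they lay below all earlier samples other than IVF morula replicates 1 and 3. Between NT morulae and NT blastocysts 21.0% of all tested sequences did not overlap. In listed RPM IVF blastocyst replicate 3, at 118, lay above NT morula replicate 3, at 105. Blastocyst-derived cells held 3.96, 0.982, 13.9 and 12.8 (IVF) and 0, 4.97 and 8.26 (NT), and fibroblasts 0, 3.53 and 0.373.

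miR-138-1-5p is the sequence named for the other gene copy. Since the copies share the mature 5p arm, whether reads so named came from that copy was not tested. In names with a mismatch, position 24 is T for copy 1 and A for copy 2. Oocytes held 372, 333 and 250 normalised reads, IVF 2-cell embryos 371, 193, 38.0 and 259, and NT 2-cell embryos 282, 254, 146 and 229. IVF 8-cell embryos held 78.9, 112 and 70.8, and NT 8-cell embryos 252, 92.2, 327 and 90.6. NT morulae held 30.7, 16.2 and 21.2, below every NT 8-cell sample, a separation that 17.2% of all tested sequences showed in either direction. IVF morulae held 0.670, 83.6, 0 and 36.8. It was listed at 0 in 5 of 7 blastocyst samples, with 2.34 in IVF replicate 3 and 3.34 in NT replicate 1. The smallest value that could be listed in blastocyst samples lay between 0.659 and 2.34 normalised reads, so a level below that was not detectable.

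**Figure D1:**
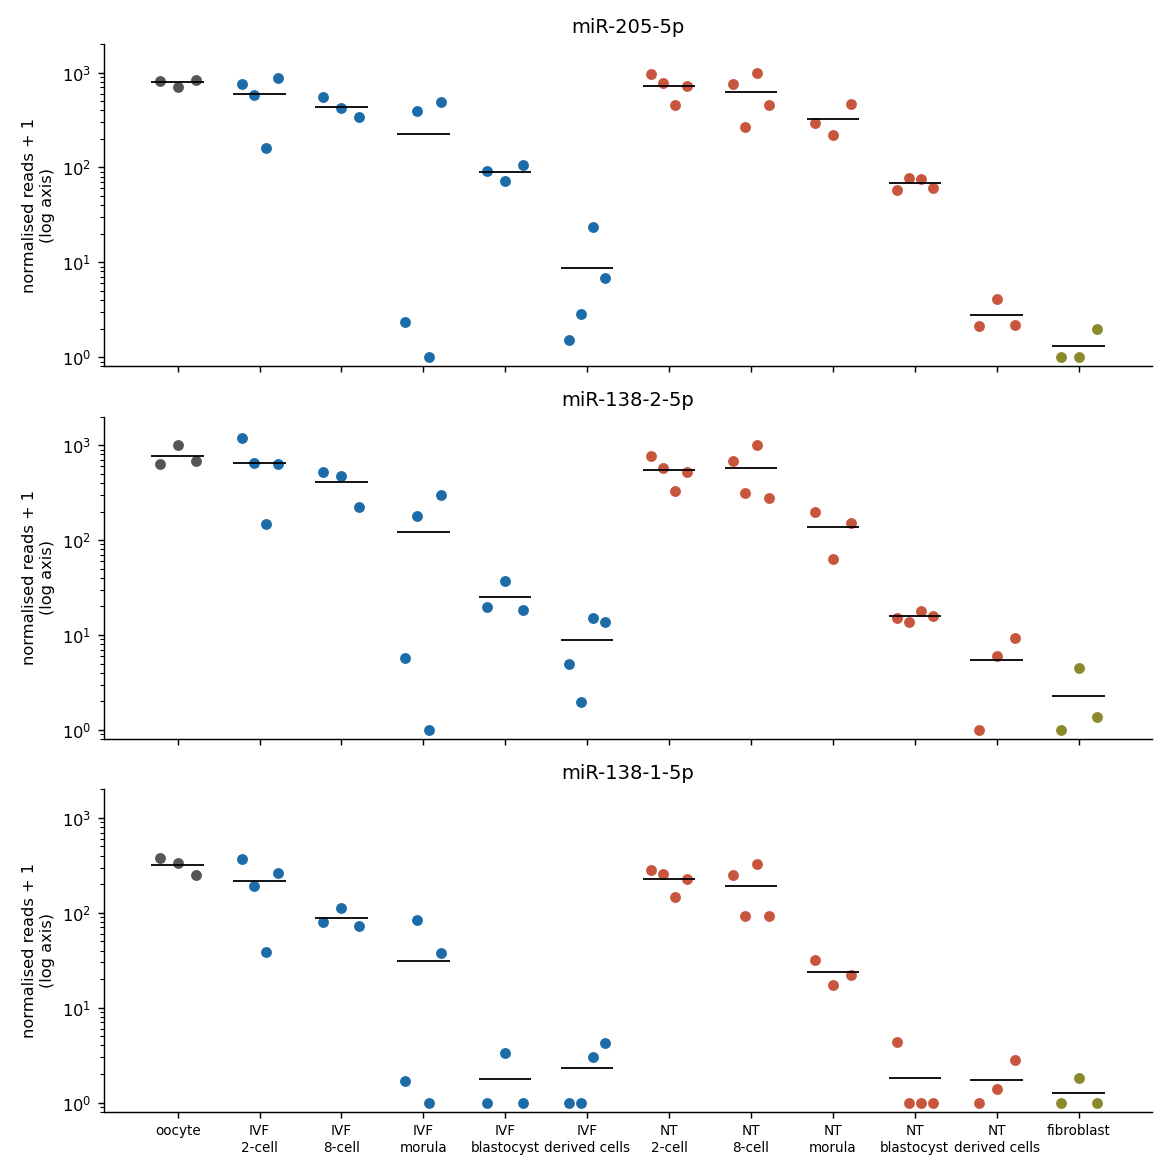
Normalised reads plus 1 on a log axis for the 3 most abundant named 5p sequences, with 1 point per library and a bar at the group mean of normalised reads plus 1. Blastocysts lie below oocytes, 2-cell and 8-cell embryos in all 3 panels on this scale, and IVF morula replicates 1 and 3 lie apart from replicates 2 and 4. In listed RPM, the miR-205-5p of blastocysts overlaps that of oocytes.

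The remaining 4 sequences were miR-138 with no arm and 3 rarer ones. miR-138 with no arm had a mean of 410 ± 142 normalised reads (SD, n = 3) in oocytes, and 32.3% to 39.6% of that mean in 2-cell embryos. In normalised reads it was the one miR-138 sequence whose oocyte samples, between 322 and 573, all lay above every later sample. The other scales did not give that separation. In miRNA RPM oocyte replicate 1, at 4814, lay below NT 2-cell replicate 1, at 5902. In listed RPM the same oocyte sample, at 156, lay below NT morula replicate 2, at 161. The sequence assigned to both copies had between 25.2 and 78.4 in oocytes, and miR-205 with no arm between 38.7 and 88.2. miR-138-1-3p, from the arm usually degraded, had between 10.5 and 35.2 in oocytes and was listed at 0 in all fibroblasts and blastocyst-derived cells.

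As a share of all miRNA reads, the 2 miR-205 sequences made up 1.32% to 2.22% in oocytes, 0.200% to 0.307% in IVF blastocysts and 0.157% to 0.268% in NT blastocysts. The 5 miR-138 sequences made up 2.07% to 4.05% in oocytes, 0.0784% to 0.204% in IVF blastocysts and 0.0633% to 0.121% in NT blastocysts. In blastocysts miR-205-5p was at 11.3% (IVF) and 8.56% (NT) of its oocyte mean in normalised reads, and at 14.8% and 12.1% in miRNA RPM. In listed RPM it was at 74.4% and 75.7%. miRNAs as a whole took 2.00% to 3.25% of listed reads in oocytes and 9.88% to 20.3% in blastocysts. Since oocyte levels chose the pair, a later level under them was favoured by the choice, and these percentages are a description. miR-138-2-5p was at 21.6% and 17.6% of its oocyte mean in listed RPM, and miR-138-1-5p at 1.66% and 2.07%.

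The tests between embryo stages used limma on the deposited log2 values of all 12039 sequences that passed a filter on low values, with Benjamini-Hochberg adjustment over all of them and a threshold of 0.05. All 7 sequences passed the filter. The change of the median sequence was -0.75 from the 2-cell stage to the blastocyst in IVF embryos and -1.16 in NT embryos. A fall of that size was typical of the table, and log2 changes below are to be read against it. It was not typical of miRNAs, whose median sequence changed by 0.06 (IVF) and -0.23 (NT). From the 2-cell stage to the blastocyst, 4 of 7 sequences fell in IVF embryos, where 28.4% of all tested sequences were called lower, and 6 of 7 in NT embryos, where 46.9% were. Among the 373 bovine miRNA sequences tested, 6.70% and 14.7% were called lower. From the 8-cell stage to the blastocyst, 3 of 7 fell in IVF embryos (17.2% of all called lower) and 6 of 7 in NT embryos (44.4%). Of the miRNA sequences, 1.88% and 14.5% were called lower there. No member rose in any of these comparisons.

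miR-138-1-5p had the largest changes of the 7. Its log2 level fell by 5.60 ± 0.82 (SE) from the 2-cell stage to the blastocyst in IVF embryos (limma, adjusted p = 3.2e-07) and by 6.07 ± 0.76 in NT embryos (limma, adjusted p = 1.4e-09). From the 8-cell stage its change was -4.69 ± 0.88 in IVF (limma, adjusted p = 0.00031) and -5.63 ± 0.76 in NT embryos (limma, adjusted p = 4.7e-08). With most blastocyst samples at the lowest value, these sizes depend on the transformation and are no bound. Centring on the median sequence ended the IVF call from the 8-cell stage, with -3.73 (limma, adjusted p = 0.074). In listed RPM the calls from the 2-cell stage held for miR-138-1-5p, with -5.70 and -5.98 from the 2-cell stage.

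miR-138-2-5p fell by 4.23 ± 0.96 from the 2-cell stage to the blastocyst in IVF embryos (limma, adjusted p = 0.00034) and by 4.77 ± 0.89 in NT embryos (limma, adjusted p = 7.0e-06). In listed RPM the changes of miR-138-2-5p were -2.16 in both, and neither passed the threshold (limma, adjusted p = 0.20 and 0.11). The summed fibroblast list was also lower in blastocysts than at the 2-cell stage, at 12236, 11566 and 15061 miRNA RPM against 28618 to 35406 (IVF) and 6777 to 11116 against 35368 to 42821 (NT), with 2 and 5 of its 26 sequences called lower. In the blood list 1 and 2 of 9 were called lower, and in the cumulus list 1 and 1 of 11. In NT embryos 1 cumulus sequence was called higher, as were 12.6% of the 373 miRNA sequences. Of the miRNA sequences 6.70% (IVF) and 14.7% (NT) were called lower, and of all tested sequences 28.4% and 46.9%. The part of these lists in the falls was not tested.

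miR-205-5p fell by 3.30 ± 0.94 from the 2-cell stage to the blastocyst in NT embryos (limma, adjusted p = 0.0026). In IVF embryos its change was -2.44 ± 1.01, which did not pass (limma, adjusted p = 0.060). Without IVF 2-cell replicate 3 it was -2.97 and passed (limma, adjusted p = 0.024). The size in NT embryos was alike in miRNA RPM, -3.32, but not called (limma, adjusted p = 0.069). In listed RPM the changes of miR-205-5p were -0.40 (NT) and -0.18 (IVF), with adjusted p = 0.76 and 1 by limma. The call on miR-205-5p therefore depends on what the reads are scaled to.

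**Figure D2:**
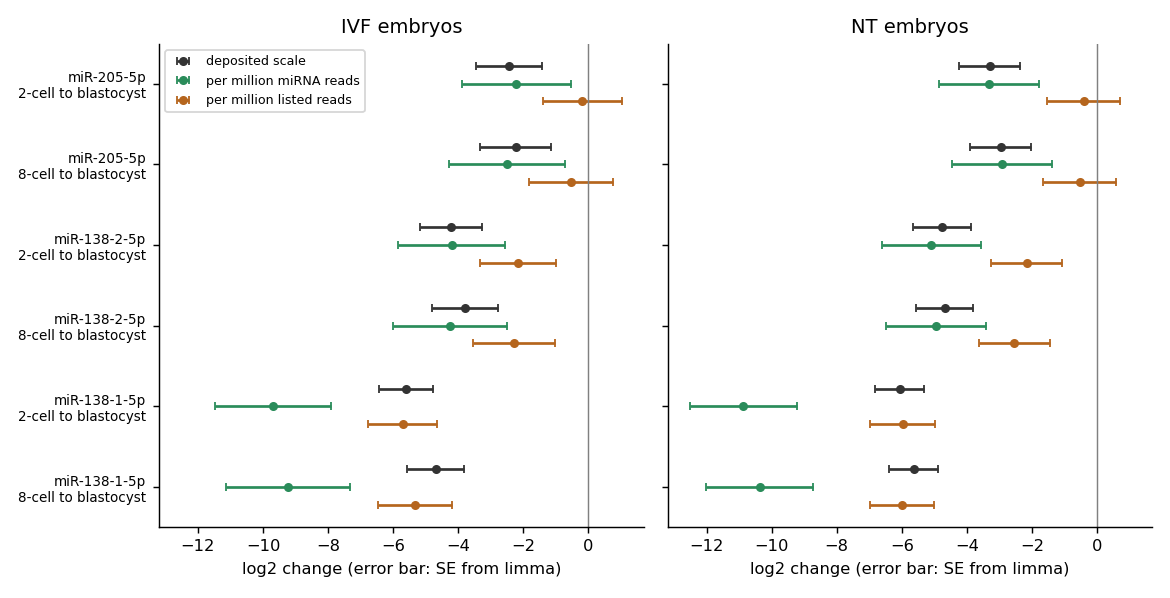
Log2 change to the blastocyst, with the standard error from limma, for miR-205-5p, miR-138-2-5p and miR-138-1-5p on the deposited scale and in miRNA or listed RPM (plus a pseudocount of 1). miR-205-5p lies at -3.30 on the deposited scale and at -0.40 in listed RPM from the NT 2-cell stage, whereas miR-138-1-5p stays at or below -4.69 on all 3 scales.

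Between neighbouring stages, no member was called from the 2-cell to the 8-cell stage in IVF (0.116% of all called in either direction) or NT embryos (0.498%). From the 8-cell stage to the morula, miR-138-1-5p was the one member called in NT embryos, where it fell by 2.64 ± 0.82 (limma, adjusted p = 0.038, 6.09% of all called lower). From the NT morula to the NT blastocyst miR-138-1-5p was again the one called, with a change of -2.99 ± 0.82 (limma, adjusted p = 0.047, 1.32% of all called lower). Leaving out any 1 NT morula or NT blastocyst library lost that second call of miR-138-1-5p, and the first was lost without NT 8-cell replicate 1 or 3 or any NT morula library. In listed RPM the first change of miR-138-1-5p was -1.78 and was not called (limma, adjusted p = 0.36).

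In IVF embryos the timing hung on morula replicates 1 and 3. With them, 3 members fell from the 8-cell stage to the morula, where 12.5% of all sequences were called lower: miR-205-5p (-3.43), miR-138-2-5p (-3.51) and miR-138-1-5p (-2.67), with adjusted p between 0.014 and 0.025 by limma. Without both, the changes were 0.03 for miR-205-5p, -0.71 for miR-138-2-5p and -0.57 for miR-138-1-5p, and none passed. The step from morula to blastocyst was then the one called, with changes of -2.27 for miR-205-5p (limma, adjusted p = 0.012), -3.07 for miR-138-2-5p (adjusted p = 0.0014) and -4.12 for miR-138-1-5p (adjusted p = 2.9e-05), beside 13.8% of all sequences called lower. With both libraries, no member was called in that step, where 0.00831% of all sequences were called.

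From blastocysts to the cells derived from them, miR-205-5p was the one member called. Its change was -3.35 ± 1.01 in IVF samples (limma, adjusted p = 0.032, 4.24% of all called lower) and -3.66 ± 1.01 in NT samples (limma, adjusted p = 0.023, 1.88% of all called lower). Here all 3 scales gave a call for miR-205-5p: in listed RPM it changed by -4.58 and -5.58, and in miRNA RPM by -6.99 and -7.84. miR-205 with no arm was not called on the deposited scale. Its mean was 9.33 normalised reads in IVF blastocysts and 10.4 in IVF blastocyst-derived cells, whose libraries held 0, 1.1, 37.4 and 3.20. In NT samples the means of miR-205 with no arm were 3.55 and 0.470. Leaving out 1 of the 7 libraries moved the adjusted p of miR-205-5p between 0.021 and 0.14 (IVF) and between 0.044 and 0.12 (NT). The call was lost without any one of them other than IVF blastocyst-derived cell replicate 3, NT blastocyst replicate 1 and NT blastocyst replicate 4. Median centring ended both (limma, adjusted p = 0.079 and 0.065), as did quantile normalisation, with -2.12 and -2.38 for miR-205-5p (limma, adjusted p = 0.15 and 0.11). The fibroblast marker list moved the other way in the same samples, with 17 of 26 sequences called higher in IVF and 14 of 26 in NT blastocyst-derived cells. In that step 20.4% (IVF) and 22.5% (NT) of the 373 miRNA sequences were called higher, and 0.930% and 0.988% of all tested sequences. The part of the fibroblast list in the result was not tested.

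The miR-200 family members miR-200c and miR-141, which share the targets ZEB1 and ZEB2 with miR-205, took another course. Of the partner list, 4 sequences of these 2 miRNAs were listed, and none was called in a comparison between embryo stages. From NT blastocysts to NT blastocyst-derived cells all 4 rose, by 5.01 ± 1.05 for miR-141-3p and 5.65 ± 1.06 for miR-200c-3p (limma, adjusted p = 0.00098 and 0.00017). In IVF samples 1 of 4 rose, miR-141 by 3.74 ± 1.12 (limma, adjusted p = 0.029). Among all tested sequences 0.988% (NT) and 0.930% (IVF) were called higher in that step, and among the 373 miRNA sequences 22.5% and 20.4%. The summed level of the 4 ran from 1212 to 1718 miRNA RPM in NT blastocysts and from 8303 to 18963 in NT blastocyst-derived cells. In IVF blastocysts it ran from 2498 to 3518, and IVF blastocyst-derived cells held 13307, 0, 10705 and 18844. The library at 0, replicate 2, also stood apart in the fibroblast list, with 196231 miRNA RPM against 54687 to 74631 in the other 3. Without it, all 4 partner sequences were called higher in IVF samples too (limma, 1.10% of all sequences called higher), a fit added after the values were seen. IVF morula replicate 1 held a summed level of 14283 miRNA RPM, within the range of NT blastocyst-derived cells, against 2324 and 2859 in morula replicates 2 and 4.

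Of the neural partners of miR-138, 13 sequences were listed. From the 2-cell stage to the blastocyst 2 fell and 1 rose in IVF embryos, where 1.11% of all sequences were called higher, and 3 fell in NT embryos. Over all sequences 28.4% and 46.9% were called lower, more than the 2 and 3 of 13 here. Among the 373 miRNA sequences 6.70% and 14.7% were called lower, less than the 2 and 3 of 13. In IVF embryos 10.2% of the miRNA sequences were called higher. miR-338-3p was among those that fell in both, by 2.14 ± 0.82 (limma, adjusted p = 0.039) and 2.65 ± 0.76 (limma, adjusted p = 0.0028). miR-132-3p, also a cumulus marker, fell in IVF embryos by 2.04 ± 0.69 (limma, adjusted p = 0.017), and miR-128 rose by 2.41 ± 0.92 (limma, adjusted p = 0.038). The median change of the 13 was -0.28 (IVF) and -0.39 (NT), beside -0.75 and -1.16 over all sequences tested and 0.06 and -0.23 over the miRNA sequences.

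IVF and NT embryos were compared at each stage, to ask whether these maternal miRNAs persist differently after nuclear transfer. limma called no member at the 2-cell, 8-cell, morula or blastocyst stage or in blastocyst-derived cells, where 2.28%, 0.00831%, 0, 0.00831% and 0 percent of all sequences were called in either direction. The largest difference was that of miR-205-5p in morulae, 2.97 ± 1.01 higher in NT (unadjusted p = 0.0045, limma adjusted p = 0.27). It was -0.50 ± 0.66 without IVF morula replicates 1 and 3. Over the 7 members, differences between NT and IVF ranged from -0.17 to 1.18 at the 2-cell stage, from -0.50 to 0.89 at the 8-cell stage and from -0.82 to -0.04 in blastocysts.

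Averaged over the 5 stages, NT minus IVF was 0.56 for miR-205-5p (p = 0.34), 0.23 for miR-138-2-5p (p = 0.63) and 0.41 for miR-138-1-5p (p = 0.27) in two-sided permutation tests of 100000 resamples within stage. Each was higher in NT at 3 of 5 stages. All 3 turned to the other sign without IVF morula replicates 1 and 3. None of the 7 members was called in the differences between NT and IVF of any of 5 steps between stages, where between 0 and 0.0581% of all sequences were called (0.00831% for the step from the 2-cell stage to the blastocyst). These results do not show that the embryos were alike, since standard errors of a single stage lay near 1 log2 unit.

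Shares within a library need no scaling. Of all miR-138 and miR-205 reads, miR-138 took 61.0%, 71.7% and 60.9% in the 3 oocyte samples. It took 54.7% to 70.2% in IVF and 55.2% to 59.2% in NT 2-cell embryos, and 50.1% to 60.6% in IVF and 47.9% to 65.0% in NT 8-cell embryos. In IVF morulae it was 81.8% in replicate 1 (27 of 33 reads, 95% Wilson interval 65.6% to 91.4%) and 40.2% and 47.1% in replicates 2 and 4, with no read of either in replicate 3, and in NT morulae 52.6%, 32.9% and 32.3%. Blastocysts stood at 28.2%, 42.4% and 28.4% (IVF) and at 35.9%, 24.1%, 28.7% and 37.6% (NT). Every blastocyst therefore lay below every oocyte, 2-cell and 8-cell sample, whatever the scaling. These shares rested on 117 to 352 reads per blastocyst library. The 95% Wilson interval of the highest one, IVF replicate 3, reached from 34.1% to 51.2% and so overlapped that of the lowest 8-cell sample, 44.8% to 51.1%. Intervals cover counting error only. In blastocyst-derived cells the share ranged from 31.3% to 95.7% on 14 to 300 reads.

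**Figure D3:**
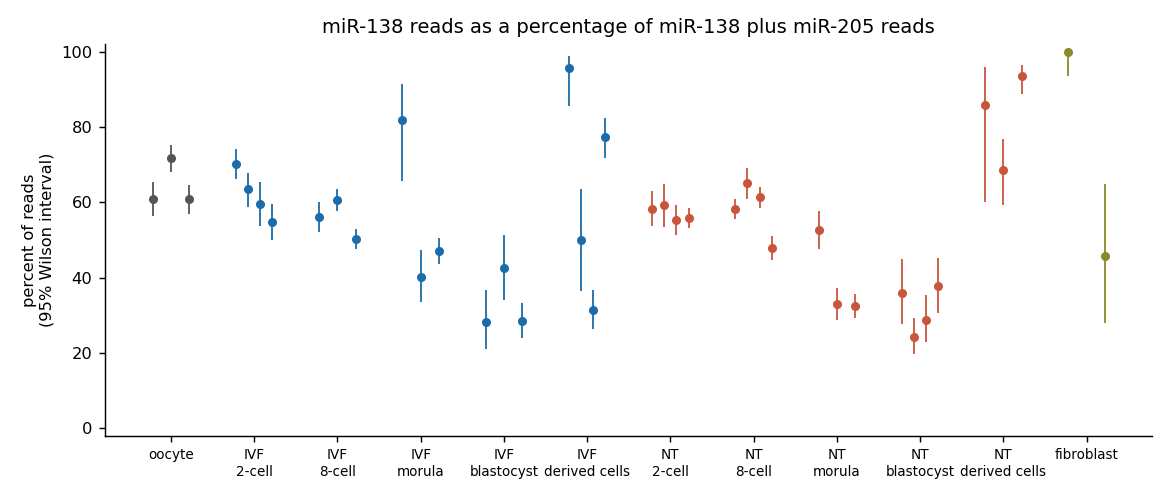
miR-138 reads as a percentage of miR-138 plus miR-205 reads in each library, with 95% Wilson intervals, without IVF morula replicate 3 and fibroblast replicate 1, which had no read of either. Blastocysts lie between 24.1% and 42.4%, below all oocyte, 2-cell and 8-cell samples, which lie between 47.9% and 71.7%.

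The forms of miR-138 were compared within libraries, and no contrast of them passed its test after adjustment. miR-138-1-5p made up 37.2%, 24.9% and 26.9% of the reads of both copy-specific 5p sequences in oocytes, 13.1% to 24.3% in IVF and 22.7% to 26.8% in NT 8-cell embryos. In blastocysts it was 0, 6.06% and 0 (IVF) and 19.0%, 0, 0 and 0 (NT), on 17 to 40 reads each. The sequence named miR-138 with no arm took 14.2% to 14.5% of miR-138 reads other than 3p in IVF and 12.1% to 16.8% in NT 8-cell embryos. In blastocysts it took 35.3% to 53.3% and 41.2% to 54.8%. What separates the sequence with no arm from those with an arm is not stated in the sources used here. Groups did not overlap in any of these 4 contrasts between the 8-cell stage and the blastocyst.

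Sequences of miR-138 that carry a mismatch, left out of the 7, reached their highest shares at the 2-cell stage. They made up 5.30% to 6.88% of miR-138 reads other than 3p in oocytes, 12.4% to 17.2% in IVF and 14.4% to 32.9% in NT 2-cell embryos. At the 8-cell stage the shares were 3.50% to 8.99% and 5.75% to 15.2%, and 6 of 7 blastocyst libraries had none. Blastocyst libraries held only 33 to 92 miR-138 reads other than 3p without a mismatch, against 328 to 725 in 8-cell libraries. With 2 reads as the smallest listed value, a low mismatch share could go unlisted in blastocysts. The mismatches lay at positions 23 to 25 of the name's own numbering, 25C->A on either copy being the most widespread, with detection in 25 libraries on copy 1 and 22 on copy 2. A single one was known for miR-205-5p (23T->A, in 17 libraries). Across 12 exact two-sided permutation tests of the copy, no-arm and mismatch shares (2-cell against 8-cell and 8-cell against blastocyst, IVF and NT, chosen after the values were seen), the smallest p was 0.029, which is the smallest that 4 against 4 samples allow. None passed after Benjamini-Hochberg adjustment over the 12, with the lowest adjusted p at 0.13 in these exact tests. The IVF contrasts of 3 against 3 samples cannot go below an exact p of 0.1.

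**Figure D4:**
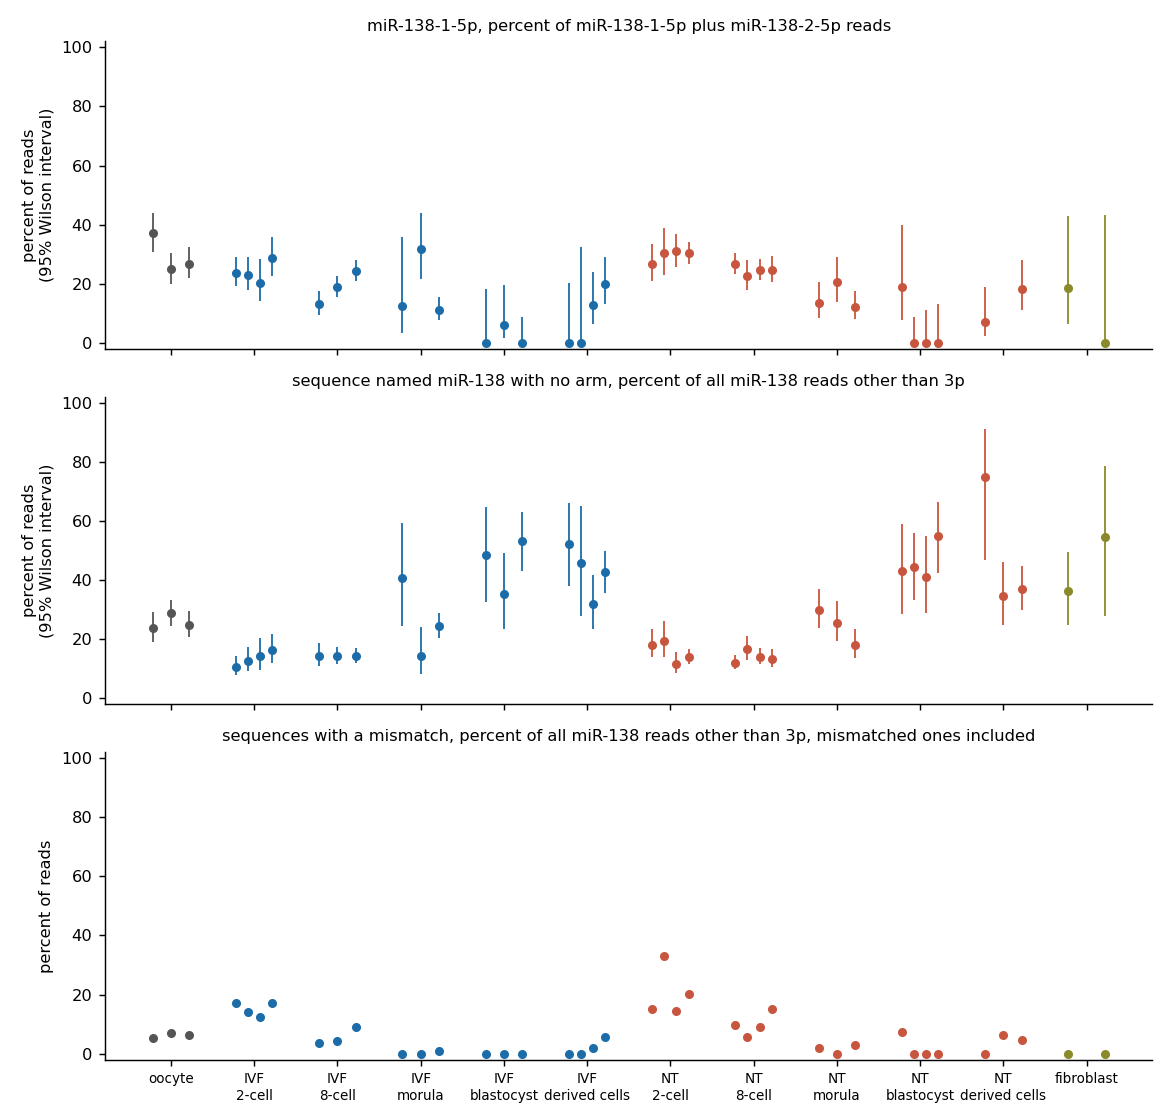
Shares of miR-138 forms in each library in percent of reads: miR-138-1-5p among 5p reads named for a single copy, the sequence with no arm, and sequences with a mismatch (Wilson intervals at 95% in the upper panels). The share with no arm lies at 12.1% to 16.8% in 8-cell embryos and at 35.3% to 54.8% in blastocysts, while the mismatch share reaches its highest values in 2-cell embryos.

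The miRNAs whose deposited values ran most like those of miR-205-5p over the 42 libraries, out of 373, were miR-338-3p (Pearson r = 0.953), miR-767-5p (0.951), miR-138-2-5p (0.95), miR-150-5p (0.941) and miR-507b-3p (0.940). For miR-138-2-5p they were miR-138 (0.967), miR-138-1-5p (0.958), miR-150-5p (0.952), miR-205-5p (0.95) and miR-338-3p (0.946). The points share their libraries and size factors, so these values describe the table and carry no test. miR-338-3p had a mean of 85.6 normalised reads in oocytes, 11.5 in IVF and 6.85 in NT blastocysts, and 0.723 in fibroblasts.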

How the data were processed

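The deposited log2 values were made by the authors, per the submitters' processing notes, with Trim Galore, DESeq2 and the builds UMD3.1 and bosTau8. Neither versions nor the aligner are stated in those notes. The lowest value, 1.3675, stands for no reads. Inverting the variance-stabilising transformation gave whole reads for 100% of 188126 values over it (tolerance 0.01 reads), with the smallest set to 2 reads, so the absolute scale of reads rests on that choice. Since every listed sequence was detected in NT 2-cell replicate 4, sequences absent there cannot be seen.

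A limma 3.58.1 model (R 4.3.3) over 12 groups, with an intensity trend and 30 residual degrees of freedom, was fitted to the 12039 sequences whose value exceeded the lowest by 1 log2 unit or more in 3 or more libraries. It was tested on simulated data. RPM values got a pseudocount of 1 before the log2. Shares with 95% Wilson intervals and the permutation tests used scipy 1.17.1. Named sequences are all 7 members, at most 4 called sequences of each list in a comparison and the 5 sequences most like a member by Pearson r. Members and lists were chosen with earlier results of these data known. The tests of the miR-138 forms were chosen after their values were seen. Alternatives covered scaling, filters, model, replicate block and left-out libraries. No 2 libraries were identical.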

Additional observations from a re-analysis of the deposited data

Results flagged for a closer look

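A pair of values stood apart from the rest of their group of 4. miR-138-1-5p in NT blastocyst replicate 1 had a deposited log2 value of 2.93, and the sequence assigned to both miR-138 copies had 2.53 in NT blastocyst replicate 4, with the other 3 libraries at the lowest value in each case. They correspond to 4 and 3 reads. The flag rests on the ratio of the gap to the range of the 4 values. That ratio is 1 whenever the other 3 values are equal, so the lowest value fixed both flags in advance. A rate expected by chance therefore does not apply to them. Of the 42 combinations of a member and a group of 4 samples, any with 4 equal values were skipped.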

How the results depend on the processing

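All alternatives were fitted with limma. Of 26 called combinations of a member and a comparison, 5 changed sign and 23 were not called under at least 1 alternative or left-out library. Of 128 not called, 91 changed sign and 34 were called under at least 1, so an uncalled direction is not to be read. The calls of miR-138-1-5p from the 2-cell stage to the blastocyst (IVF and NT) and from the NT 8-cell stage to the blastocyst held under all 11 alternatives and all left-out libraries. The cause of the changes below was not tested.

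Numbers of members called are given in the order IVF 8-cell to morula (3 as reported), IVF 8-cell to blastocyst (3), IVF 2-cell to blastocyst (4), IVF blastocyst to derived cells (1), NT 8-cell to morula (1), NT morula to blastocyst (1), NT 8-cell to blastocyst (6), NT 2-cell to blastocyst (6) and NT blastocyst to derived cells (1). They were 0, 0, 3, 0, 0, 0, 2, 3 and 0 with median centring. They were 0, 1, 1, 2, 0, 0, 2, 2 and 2 with quantile normalisation. In listed RPM they were 2, 2, 2, 2, 0, 2, 2, 2 and 2, and in miRNA RPM 6, 2, 2, 2, 0, 2, 3, 3 and 3. With voom on recovered reads they were 0, 1, 1, 3, 0, 1, 2, 2 and 4, with the compared groups alone 0, 7, 5, 3, 2, 6, 7, 6 and 5, and with library weights 0, 4, 1, 2, 0, 2, 5, 4 and 3. The stricter filter gave 5, 3, 5, 1, 1, 2, 7, 6 and 1, no intensity trend 4, 3, 4, 1, 1, 2, 5, 6 and 1 and the replicate block 3, 3, 5, 1, 1, 0, 6, 6 and 1. NT minus IVF in derived cells gave 1 with library weights in place of 0. Without IVF morula replicates 1 and 3, alone or in miRNA RPM, 0 members were called from the IVF 8-cell stage to the morula, and 5 and 3 from the morula to the blastocyst in place of 0. With 1 library left out, counts ran from 0 to 6 (IVF 8-cell to morula), 0 to 1 (IVF and NT blastocyst to derived cells, NT 8-cell to morula, and the NT minus IVF difference of the step from morula to blastocyst), 3 to 5 (IVF 2-cell to blastocyst), 0 to 2 (NT minus IVF in morulae) and 5 to 6 (NT 8-cell to blastocyst), and were 0 throughout from the NT morula to the blastocyst.

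In median centring, quantile normalisation, listed RPM, miRNA RPM and voom, miR-138-2-5p from the IVF 8-cell stage to the blastocyst was -2.83, -2.75, -2.28, -4.24 and -2.26, none of them called. From the IVF 2-cell stage it was not called in the last 4 of these (-2.48, -2.16, -4.20 and -2.14) or with library weights (-4.17). From the NT 8-cell and 2-cell stages it was not called in listed RPM (-2.55 and -2.16) and voom (-2.53 and -2.15). miR-138-1-5p from the IVF 8-cell stage was not called with median centring (-3.73). In the same 5 alternatives and with library weights, miR-205-5p was not called from the NT 8-cell stage (-1.16, -1.05, -0.54, -2.92, -0.53 and -2.85) or the NT 2-cell stage (-2.32, -1.0, -0.40, -3.32, -0.40 and -3.28). In IVF embryos miR-205-5p became called with the compared groups alone from the 8-cell stage (-2.23) and the 2-cell stage (-2.44), and from the 2-cell stage with the stricter filter (-2.44) and the replicate block (-2.57). With 1 library left out it ranged from -2.97 to -2.17 there. Quantile normalisation turned 4 other changes to the opposite sign: miR-138 from the IVF (0.27) and NT (0.023) 2-cell stage, miR-138-1-3p from the NT 2-cell stage (0.34) and miR-205 from the NT 8-cell stage (0.36), all to the blastocyst. Without IVF morula replicates 1 and 3, miR-205-5p from the IVF 8-cell stage to the morula was 0.035, and NT minus IVF over the stages was -0.0085 for miR-138-1-5p, -0.33 for miR-138-2-5p and -0.14 for miR-205-5p. For miR-138-2-5p the latter was also -0.019 with median centring and -0.042 with quantile normalisation, and ran from -0.018 to 0.44 with 1 library left out.

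Sequences called over the whole table moved by over 1.5 times in every comparison. The number as reported and, in parentheses, the range over all alternatives and left-out libraries were: IVF 2-cell to 8-cell 14 (0 to 196), IVF 8-cell to morula 1535 (0 to 3090), IVF morula to blastocyst 1 (0 to 1815), IVF 8-cell to blastocyst 2113 (28 to 4884), IVF 2-cell to blastocyst 3559 (1301 to 4286), IVF blastocyst to derived cells 622 (330 to 11104), NT 2-cell to 8-cell 60 (2 to 232), NT 8-cell to morula 765 (133 to 1470), NT morula to blastocyst 166 (0 to 3156), NT 8-cell to blastocyst 5506 (2351 to 6314), NT 2-cell to blastocyst 5797 (2412 to 6160), NT blastocyst to derived cells 345 (181 to 3548). For NT minus IVF they were: 2-cell 275 (0 to 877), 8-cell 1 (0 to 39), morula 0 (0 to 664), blastocyst 1 (0 to 336), derived cells 0 (0 to 112). For the differences of steps they were: 2-cell to 8-cell 7 (0 to 48), 8-cell to morula 0 (0 to 21), morula to blastocyst 0 (0 to 353), 2-cell to blastocyst 1 (0 to 35), blastocyst to derived cells 0 (0 to 217).

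The replicate numbers were not taken as pairs, since not every pair with the same number had a correlation of deviations over 0.1: 7 of 16 had (median 0.089), against 8 of 48 with different numbers (median -0.029), so some pairing is not excluded. The replicate block ended the call of miR-138-1-5p from the NT morula to the blastocyst (adjusted p = 0.064 by limma) and moved miR-205-5p as above. The leave-out of IVF morulae 1 and 3 in miRNA RPM was chosen after seeing the data, as was the gene-by-gene estimator of library weights, since the default one stopped before it converged. The single values given were narrowed to those printed here after many sign changes were seen among uncalled ones. Depth sets the smallest level that can be listed, from 0.149 normalised reads in fibroblast replicate 4 to 25.4 in IVF morula replicate 3.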
